A study of Mus musculus with 4 samples.

Results

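Class I histocompatibility and antigen presentation genes were examined in E9.5 mouse embryos that lack Jmjd3. The set held 8 genes of the 18224 that the array probes could be named for: the heavy chain genes H2-K1, H2-D1 and H2-T23, the heavy chain gene copy H2-Bl, the light chain gene B2m, and the peptide supply and loading genes Tap1, Tap2 and Tapbp. They were chosen on this same comparison of Jmjd3-/- with wild-type embryos, in which H2-Bl had already been seen to differ, so their values are given as a description and with no test. All 15 probes that map to the 8 genes are shown.

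The 2 genotypes were Jmjd3-/-, with samples numbered 1 and 9, and wild-type, with samples numbered 3 and 4, called replicates here. Each sample was total RNA from the posterior part of E9.5 embryos of a cross between Jmjd3+/- parents. Pairs of values follow that order of replicates throughout. Jmjd3 (Kdm6b) is a histone demethylase that takes away methyl marks linked to gene silencing from histone H3. There were 2 independent RNA samples per genotype, each on 1 array. The sample titles name an embryo in the singular, but no label states outright that a sample is 1 embryo. Errors and p-values therefore cover only how these samples vary. The labels name neither the strain nor the H2 haplotype of the mice, and say nothing of the allele beyond its name. The probe sequences were not used here, so which of several similar copies or alleles a probe binds was not resolved. All 16 marker genes of the posterior embryo, such as Tcf15 and Hoxc9, were well enough above background to be tested.

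Class I molecules are made of a heavy chain and the light chain beta-2-microglobulin, and they show peptides from inside the cell to CD8 T cells and natural killer cells. The proteasome cuts the peptides, the Tap1 and Tap2 pump moves them into the endoplasmic reticulum, and tapasin, the product of Tapbp, helps to load them. Transcription is raised by interferon and NF-kappa B, by way of short elements before the start site, and by the co-activator Nlrc5. In the early embryo class I genes are known for low expression.

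Promoters were read from RefSeq (GRCm38.p6), 250 bases before to 50 after a start site, which the table held for 6 of the 8 genes. H2-K1 and H2-D1 are shown because they hold the letters of all 4 elements searched, and B2m and H2-T23 because they do not carry most of the same letters. Capitals mark matches, on either strand, to GGGNNTTCC (kappa B), GTTTCNNTT (interferon response), TGACGC (X2) and CCAAT; no matches overlapped. The windows are chr17:34000298-34000597 (minus strand) for H2-K1 (the first of its listed start sites), chr17:35262844-35263143 (plus strand) for H2-D1, chr2:122147437-122147736 (plus strand) for B2m and chr17:36032652-36032951 (minus strand) for H2-T23.
H2-K1: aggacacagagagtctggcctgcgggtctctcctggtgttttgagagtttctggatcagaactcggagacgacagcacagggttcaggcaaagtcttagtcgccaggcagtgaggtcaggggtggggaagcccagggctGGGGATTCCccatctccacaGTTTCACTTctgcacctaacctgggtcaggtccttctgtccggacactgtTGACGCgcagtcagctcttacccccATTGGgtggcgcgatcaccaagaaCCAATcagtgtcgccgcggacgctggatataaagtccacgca
H2-D1: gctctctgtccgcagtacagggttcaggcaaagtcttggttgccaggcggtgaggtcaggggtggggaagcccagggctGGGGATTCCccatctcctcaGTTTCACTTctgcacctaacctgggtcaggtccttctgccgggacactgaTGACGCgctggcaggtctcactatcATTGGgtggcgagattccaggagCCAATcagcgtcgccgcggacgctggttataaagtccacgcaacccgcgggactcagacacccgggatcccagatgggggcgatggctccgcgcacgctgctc
B2m: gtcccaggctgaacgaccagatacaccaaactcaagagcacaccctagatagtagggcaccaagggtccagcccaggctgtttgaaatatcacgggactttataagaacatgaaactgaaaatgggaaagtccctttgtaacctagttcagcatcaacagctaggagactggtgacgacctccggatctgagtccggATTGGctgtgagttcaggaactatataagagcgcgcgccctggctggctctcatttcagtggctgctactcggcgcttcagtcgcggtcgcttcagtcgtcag
H2-T23: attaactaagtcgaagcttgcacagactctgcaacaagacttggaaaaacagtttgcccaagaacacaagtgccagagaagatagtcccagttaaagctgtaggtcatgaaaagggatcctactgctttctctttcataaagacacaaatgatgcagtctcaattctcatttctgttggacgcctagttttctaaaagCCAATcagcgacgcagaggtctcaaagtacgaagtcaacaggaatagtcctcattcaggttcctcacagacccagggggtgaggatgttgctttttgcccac
From the kappa B match to the X2 match, H2-K1 and H2-D1 were identical at 72 of 76 bases, or 94.7%. The kappa B letters were found in 2 of the 6 windows of the set, H2-K1 and H2-D1, against 5.82% of all 32851 windows in the table. The same 2 windows held the interferon response letters (5.77% of all windows) and the X2 letters (7.40%). CCAAT was found in 6 of 6 windows and in 37.4% of all. These are matches of letters, and no match says only that the letters are not in the window.

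Before the genes of the set, the arrays themselves were compared. Kdm6b, the targeted gene, had a normalised log2 signal of 0.35 and 0.11 in the Jmjd3-/- samples, against 2.15 and 2.23 in the wild-type samples; the sources used here do not say whether its 1 probe lies in the deleted part. Normalised log2 signal is log2 of the processed intensity minus the 75th percentile of the array. Of 13583 genes, 430 differed by more than 2-fold between the Jmjd3-/- arrays, against 156 between the wild-type arrays. Differences of that size from the wild-type arrays numbered 801 and 706 genes for Jmjd3-/- replicate 1 and 355 and 333 for replicate 9. By that count replicate 9 was closer to the wild-type arrays than to its own partner. All 4 arrays were on 1 slide, with the Jmjd3-/- arrays at its ends, so position and genotype cannot be told apart. Between 24626 and 25943 of 41174 probes per array were well above background, and precision is limited by having 2 arrays per genotype.

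The 8 genes behaved unalike. H2-Bl was far higher in the Jmjd3-/- samples by all 3 of its probes, H2-K1 and B2m overlapped between the genotypes by every probe, H2-D1 and Tapbp did so by 1 of 2 probes, and H2-T23 was slightly higher by its 1 probe. Tap1 and Tap2 were not well above background on any array. A probe counts as measured if at least 1 genotype had it well above background on both of its arrays. Of the 13 measured probes, 6 were higher on both Jmjd3-/- arrays than on both wild-type arrays and 0 were lower. Across all 25053 measured probes, 23.3% were higher and 21.3% were lower in that sense. The median log2 difference, Jmjd3-/- minus wild-type, was 0.09 over the 13 probes and 0.001 over all measured probes. Of the 5 genes with an adjusted p under 0.05 among 13583 (0.0368%; limma), 1 was H2-Bl, and as this comparison chose it nothing is read from that.

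**Figure D1:**
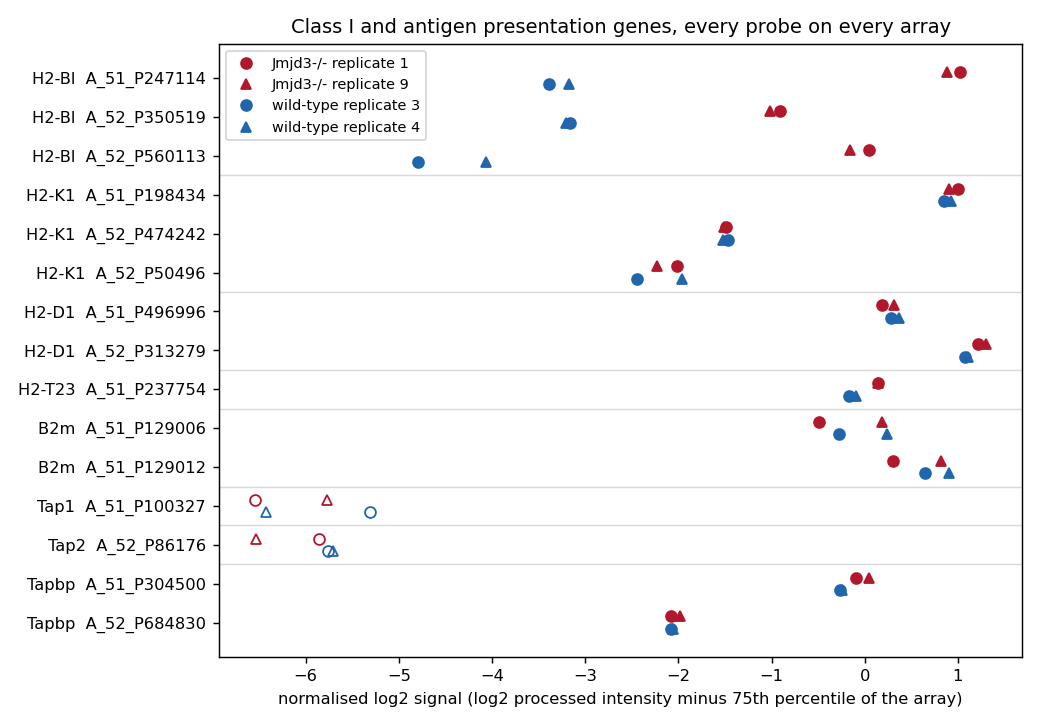
Normalised log2 signal (x axis) of all 15 probes of the 8 genes on each array, with Jmjd3-/- in red above wild-type in blue in each row; open symbols mark probes not well above background on any array. The red and blue points of the 3 H2-Bl probes stand apart by 2.23 to 4.37, while the genotype means of the other measured probes differ by at most 0.27.

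H2-Bl lies on chromosome 17 as the last of the set in gene order, and the RefSeq table lists it as a transcribed pseudogene. Its probe A_51_P247114 had a normalised log2 signal of 1.02 and 0.88 in the Jmjd3-/- samples, against −3.39 and −3.17 in the wild-type samples. In processed intensity this was 1225 and 1062 units in the Jmjd3-/- samples, against 57.2 and 69.4 units in the wild-type samples. The groups did not overlap, and the log2 difference was 4.23 (SE 0.12, n = 2 per genotype), or 18.8-fold. No gene tested had a larger positive difference by its brightest probe, though single measured probes reached 5.31. The set was chosen on this comparison, so nothing is read from that place.

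The other H2-Bl probes ran the same way, by different amounts. A_52_P560113 had 0.04 and −0.16 in the Jmjd3-/- samples, against −4.79 and −4.07 in the wild-type samples. Its log2 difference was 4.37 (SE 0.29), or 20.7-fold. A_52_P350519 had −0.91 and −1.01 in the Jmjd3-/- samples, against −3.17 and −3.21 in the wild-type samples. That probe gave a smaller log2 difference of 2.23 (SE 0.09), or 4.69-fold. All 3 probes were well above background on all 4 arrays, so a signal was measured in both genotypes. The size depended on the background correction: with normexp, which models the background from the raw signals, A_51_P247114 gave 9.82-fold, A_52_P350519 2.83-fold and A_52_P560113 6.31-fold. The 3 probes share 1 transcript accession and are not replicates of the genotypes.

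H2-K1 encodes the classical heavy chain K, and its 3 probes overlapped between the genotypes. A_51_P198434, spotted 10 times on each array, had 1.00 and 0.90 in the Jmjd3-/- samples, against 0.85 and 0.93 in the wild-type samples. Its log2 difference of 0.06 (SE 0.09) was smaller than its error. A_52_P474242 had −1.49 and −1.51 in the Jmjd3-/- samples, against −1.47 and −1.52 in the wild-type samples. A_52_P50496 had −2.02 and −2.22 in the Jmjd3-/- samples, within the range of −2.45 and −1.97 of the wild-type samples. The differences of these 2 probes were −0.004 (SE 0.08) and 0.09 (SE 0.21).

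H2-D1 encodes the classical heavy chain D, and its 2 probes gave different answers. A_52_P313279 had 1.22 and 1.30 in the Jmjd3-/- samples, against 1.07 and 1.11 in the wild-type samples. The genotypes did not overlap by this probe, with a log2 difference of 0.17 (SE 0.08). A_51_P496996 had 0.18 and 0.31 in the Jmjd3-/- samples, against 0.29 and 0.37 in the wild-type samples. Its difference was −0.08 (SE 0.10), and the genotypes overlapped. The direction for H2-D1 therefore depended on the probe.

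H2-T23 encodes the heavy chain of Qa-1, a non-classical molecule that shows leader peptides of other class I chains to natural killer cell receptors. Its probe A_51_P237754 had 0.14 on both Jmjd3-/- arrays, against −0.17 and −0.09 in the wild-type samples. Both Jmjd3-/- values were higher, with a log2 difference of 0.27 (SE 0.08), or 1.21-fold. Leaving out any 1 array gave a difference between 0.23 and 0.31.

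B2m encodes the light chain that every class I molecule shares, and it varied more within each genotype than between them. A_51_P129006, spotted 10 times on each array, had −0.49 and 0.19 in the Jmjd3-/- samples, against −0.28 and 0.24 in the wild-type samples. A_51_P129012 had 0.30 and 0.82 in the Jmjd3-/- samples, against 0.65 and 0.91 in the wild-type samples. By both probes Jmjd3-/- replicate 1 and wild-type replicate 3 were the low sample of their genotype. The log2 differences were −0.13 (SE 0.32) and −0.22 (SE 0.23), both smaller than their errors.

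The repeated spots show how much of this lay within an array. The 10 B2m spots had an SD of 0.056 and 0.014 in the Jmjd3-/- samples, and of 0.024 and 0.039 in the wild-type samples. The arrays of 1 genotype were 0.68 apart in Jmjd3-/- and 0.52 apart in wild-type. So the gap between arrays exceeded the spread between spots in both genotypes. For H2-K1 the SD over 10 spots was 0.043 and 0.047 in the Jmjd3-/- samples, and 0.033 and 0.030 in the wild-type samples, and the arrays were 0.10 apart in Jmjd3-/- and 0.08 apart in wild-type. Spots are repeats of 1 sample on 1 array and do not count as samples.

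**Figure D2:**
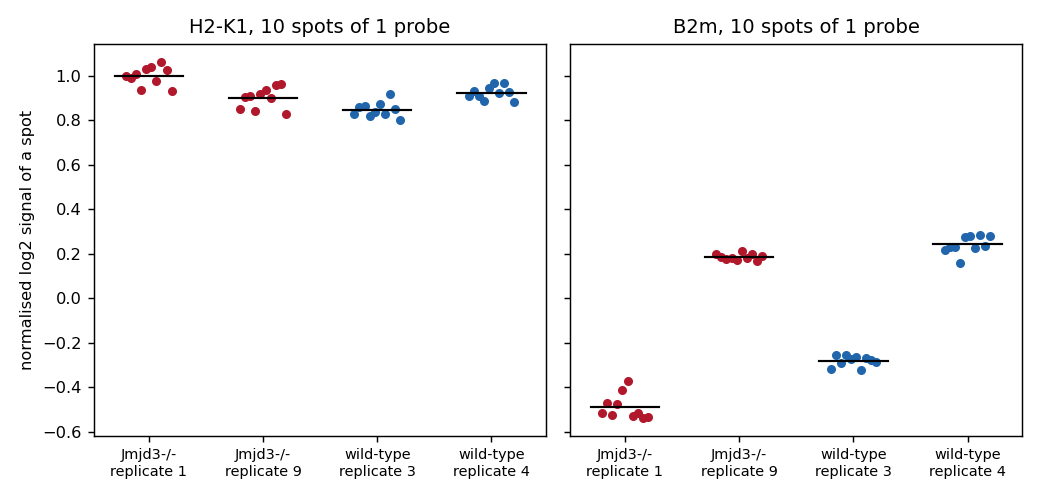
Normalised log2 signal (y axis) of each of 10 spots of 1 H2-K1 probe (left) and 1 B2m probe (right), with Jmjd3-/- arrays in red and wild-type arrays in blue; black lines are means. The H2-K1 means lie between 0.85 and 1.00 on all 4 arrays, whereas B2m is low in Jmjd3-/- replicate 1 (−0.49) and wild-type replicate 3 (−0.28).

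Among the loading genes, Tapbp encodes tapasin, which bridges the peptide pump and the empty heavy chain. Its probe A_51_P304500 had −0.09 and 0.04 in the Jmjd3-/- samples, against −0.26 and −0.24 in the wild-type samples. The Jmjd3-/- values were both higher, with a log2 difference of 0.23 (SE 0.09). The second Tapbp probe, A_52_P684830, had −2.08 and −1.98 in the Jmjd3-/- samples, against −2.08 and −2.06 in the wild-type samples, and a difference of 0.04 (SE 0.09). Those values overlapped. The 2 probes carry different transcript accessions.

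Tap1 and Tap2 encode the subunits of the peptide pump. Tap1 probe A_51_P100327 had processed intensities of 6.47 and 10.6 units in the Jmjd3-/- samples, against 15.1 and 7.30 units in the wild-type samples. Tap2 probe A_52_P86176 had 10.4 and 6.24 units in the Jmjd3-/- samples, against 11.01 and 11.95 units in the wild-type samples. Neither was well above background on any of the 4 arrays, so no difference is given for them. Taken without H2-Bl, the 10 measured probes of the other genes had log2 differences from −0.22 to 0.27 with a median of 0.05, of which 3 (30.0%) were higher without overlap, 0 were lower and 7 overlapped. That share is near the 23.3% of all measured probes that were higher in that sense.

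Other class I and class I-like genes, 33 in the list and 24 on the array, moved in both directions. Over their 22 measured probes, of 15 genes, 8 were higher without overlap, 7 were lower and 7 overlapped, with a median of 0.06. These are 36.4% higher and 31.8% lower, against 23.3% and 21.3% of all measured probes. In limma 0 of these 15 genes passed at an adjusted p under 0.05, 3 had an unadjusted p under 0.05 with higher values and 2 with lower ones, and over all genes tested 11.2% had such a p in either direction. The probes of 1 gene are not independent, and several class I genes are close copies.

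H2-K2, a copy near H2-K1 whose probes carry a non-coding accession, had the largest positive difference of that list. Its probe A_51_P444565 had 0.67 and 0.58 in the Jmjd3-/- samples, against −0.58 and −0.46 in the wild-type samples, a log2 difference of 1.15 (SE 0.09, limma adjusted p = 0.159). The other H2-K2 probe, A_51_P502456, gave −0.06, with −0.52 and −0.56 in the Jmjd3-/- samples against −0.49 and −0.48 in the wild-type samples. As with H2-D1, the probes of this gene did not give the same answer, and their average was 0.55.

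Among the Qa region genes H2-Q2 was higher by both probes, at 0.66 and 0.68 in the Jmjd3-/- samples, against 0.06 and 0.08 in the wild-type samples by the brighter one. Its difference was 0.60 (SE 0.07, limma adjusted p = 0.210), and 0.85 by the other probe. H2-Q10, which encodes a soluble class I chain of the liver, was higher by all 4 probes, with differences of 0.57 (SE 0.07, limma adjusted p = 0.225), 0.47, 0.84 and 1.02. The last 2 of these had Jmjd3-/- replicate 1 well above replicate 9, at −3.20 and −1.66 against −4.33 and −3.04. H2-Q4, H2-Q7 and H2-Q8 overlapped between the genotypes, at 0.04, −0.03 and 0.08.

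Lower values were found for H2-T22, whose product is a ligand of some gamma delta T cells. By its brightest probe H2-T22 had 0.08 and 0.31 in the Jmjd3-/- samples, against 0.65 and 0.76 in the wild-type samples. Its 3 probes differed by −0.51 (SE 0.12, limma adjusted p = 0.340), −0.38 and −0.41. H2-Q1 had −0.58 (SE 0.20, limma adjusted p = 0.447). The antigen-presenting molecule genes H2-M3 and Cd1d1 had −0.06 and 0.25, and Fcgrt, which encodes an antibody transporter that pairs with B2m, had −0.48 with overlap. The genes of the list that were on the array and not well above background on any array were 9, among them H2-T3 and Mr1.

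**Figure D3:**
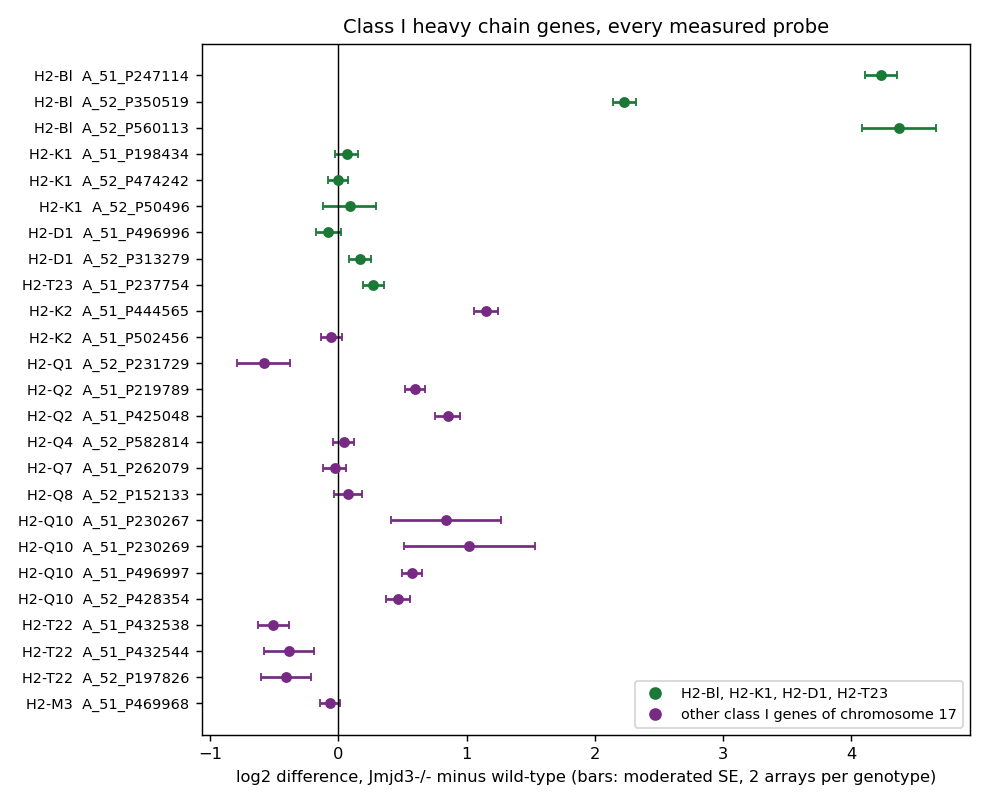
Log2 difference, Jmjd3-/- minus wild-type (x axis), with its moderated SE for every measured probe of class I heavy chain genes of chromosome 17; green marks H2-Bl, H2-K1, H2-D1 and H2-T23 and purple the others. H2-Bl lies at 2.23 to 4.37, H2-K2 at 1.15 by 1 probe and −0.06 by the other, and H2-T22 below 0 by all 3 probes.

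The promoter letters were also searched in the 22 genes of this list that had a window. Kappa B letters were in 5, among them H2-Q4 and H2-Q7, which overlapped between the genotypes. The interferon response letters were in 9, among them H2-Q10 and H2-T22, X2 in 2 and CCAAT in 13. The H2-Q2 window held CCAAT only.

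In gene order along chromosome 17, 196 genes run from Tapbp to H2-Bl. Log2 differences over 0.5 in size were found for 1 of the 5 tested genes of the set in this stretch (H2-Bl), for 5 of 7 other class I genes and for 4 of 79 genes that are no class I gene (5.06%). Over all 13583 genes the share was 10.12%. The median size of the difference was 0.57 for the other class I genes, 0.09 for genes that are no class I gene and 0.12 for all genes. Of the 79, 0 passed in limma, and 3 had an unadjusted p under 0.05 with higher values and 1 with lower ones. Genes with such a p were 5.06% of the 79, against 11.2% of all genes tested. Ltb, a gene of the lymphotoxin complex, was 1 of the 3 higher genes and 1 of the 4 with a difference over 0.5. It was well above background on both Jmjd3-/- arrays and on neither wild-type array, so only the higher genotype carried it past the filter. Nothing is therefore read from its difference. The Jmjd3-/- mean was at least 1.46-fold above the lowest signal well above background on each wild-type array, or the gene's own where higher. The limma adjusted p of the fitted difference was 0.392. Col11a2, a collagen gene, had 0.32 (SE 0.09, limma adjusted p = 0.400) and Gtf2h4, of a general transcription factor, −0.34 (SE 0.11, limma adjusted p = 0.420).

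**Figure D4:**
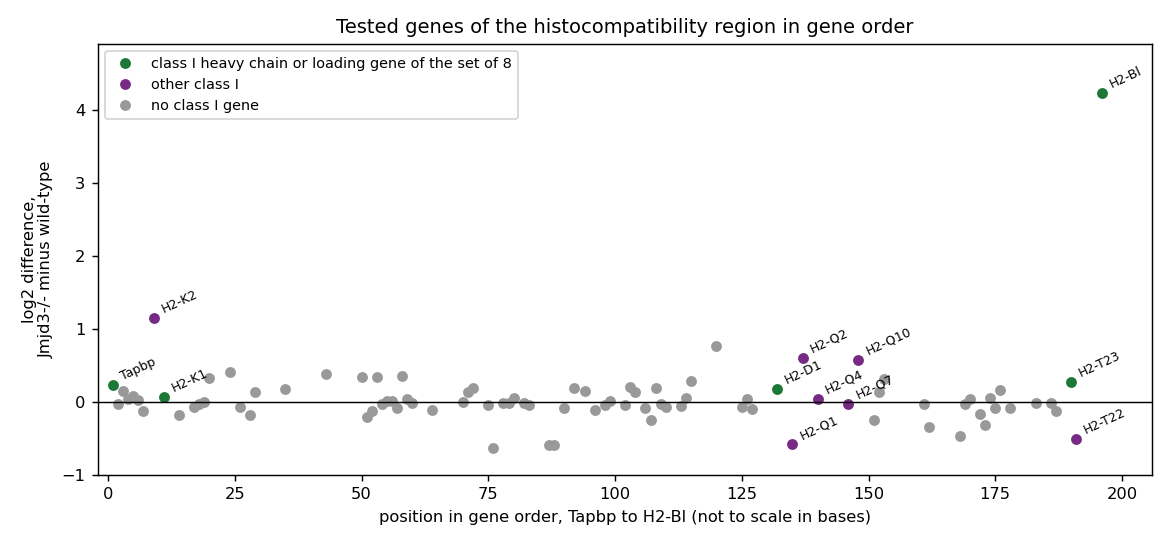
Log2 difference, Jmjd3-/- minus wild-type (y axis), of each tested gene against its place in gene order from Tapbp to H2-Bl on chromosome 17 (x axis, not to scale). H2-Bl stands at 4.23 at the right end; the grey genes that are no class I gene have a median of −0.02.

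Genes of peptide cutting and loading held no call. Of 18 tested genes 0 passed in limma and 0 had an unadjusted p under 0.05. Positive differences were found for 15 and negative ones for 3, against 6365 positive of all 13583. The median was 0.08 against −0.01 over all genes. Both Jmjd3-/- arrays were above both wild-type arrays at 8 of the 18 and below at 0, against 23% and 23.8% of all genes. Ganab, which trims sugars on new glycoproteins, had 3.258 and 3.309 in the Jmjd3-/- samples, against 3.082 and 3.102 in the wild-type samples (difference 0.19, SE 0.07, limma adjusted p = 0.468). That is its brightest probe, and the mean of its measured probes gave 1.02 (limma adjusted p = 0.570), so the value depended on the probe. Erap1, the peptidase that trims peptides to the length class I takes, had −1.93 and −2.19 in the Jmjd3-/- samples, against −2.32 and −2.40 in the wild-type samples (difference 0.30, SE 0.12, limma adjusted p = 0.490). Tpp2, a cytosolic peptidase, and Uggt1, a folding sensor, had differences of 0.15 and 0.39, with SEs of 0.09 and 0.26. The immunoproteasome gene Psmb8 was well above background on Jmjd3-/- replicate 1 only, and Psmb9 and Psmb10 had differences of 0.13 (SE 0.17) and 0.09 (SE 0.07).

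Of 21 genes of the constitutive proteasome 19 had a negative difference and 2 a positive one, against 7218 negative of all 13583, with a median of −0.06, and 0 passed in limma or had an unadjusted p under 0.05. Both Jmjd3-/- arrays were below both wild-type arrays at 10 of them, against 23.8% of all genes. Psmb7, a catalytic subunit gene, had 3.84 and 4.00 in the Jmjd3-/- samples, against 4.09 and 4.08 in the wild-type samples, a difference of −0.16 (SE 0.09, limma adjusted p = 0.578). Psmb2 had −0.13 (SE 0.08), and Psma4 and Psmb6 had −0.10 each (SE 0.07).

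The known regulators of class I transcription gave 10 positive and 11 negative differences over 21 tested genes, with a median of −0.002. Both Jmjd3-/- arrays were above both wild-type arrays at 3 of them and below at 8, against 23% and 23.8% of all genes. In limma 0 passed and 0 had an unadjusted p under 0.05. Nlrc5, the class I co-activator, had processed intensities of 11.30 and 10.65 units in the Jmjd3-/- samples, against 11.8 and 12.1 units in the wild-type samples, and was not well above background on any of them. Irf1, an activator that interferon induces, had 0.77 and 0.45 in the Jmjd3-/- samples against 0.35 and 0.28 in the wild-type samples (difference 0.30, SE 0.14, limma adjusted p = 0.524). Rfx5, which binds the X box, had 0.18 (SE 0.08), Irf2 −0.22 (SE 0.13), and Nr2f2, an orphan receptor of the family that binds an upstream class I element, −0.35 (SE 0.15).

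Interferon ligand genes Ifnb1, Ifna4, Ifng and Ifnk were not well above background on any array. Of 12 tested genes of the interferon receptors and their signal 7 had a positive and 5 a negative difference, with a median of 0.05, and 0 passed in limma or had an unadjusted p under 0.05. The kinase genes Jak1 and Tyk2 had 0.20 (SE 0.08) and 0.15 (SE 0.09), the receptor gene Ifnar1 −0.17 (SE 0.10) and the feedback inhibitor gene Socs3 −0.26 (SE 0.12).

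Interferon-induced genes differed in both directions. Of 29 tested genes 0 passed in limma, 2 had an unadjusted p under 0.05 with higher values and 4 with lower ones. Genes with such a p were 20.7% of the list, against 11.2% of all genes tested. The median difference was 0.13. Trim25, a ubiquitin ligase gene of antiviral sensing, lies on chromosome 11, as does Kdm6b. It had 1.24 and 1.08 in the Jmjd3-/- samples, against 0.04 and 0.13 in the wild-type samples, a difference of 1.08 (SE 0.10, limma adjusted p = 0.161) that was 0.61 over the mean of its measured probes. Rsad2, which encodes the antiviral protein viperin, had −5.47 and −5.11 in the Jmjd3-/- samples, against −3.98 and −4.09 in the wild-type samples (difference −1.26, SE 0.15, limma adjusted p = 0.216), and with normexp the difference was −0.24. Igtp, an interferon-inducible GTPase gene that also lies on chromosome 11, had −0.48 (SE 0.07, limma adjusted p = 0.280). The part of chromosome position in these differences was not tested. Ifitm1, a membrane protein gene also expressed in embryos, had 0.75 (SE 0.19, limma adjusted p = 0.358). In Ifit1, by contrast, the signal was well above background on Jmjd3-/- replicate 1 only.

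**Figure D5:**
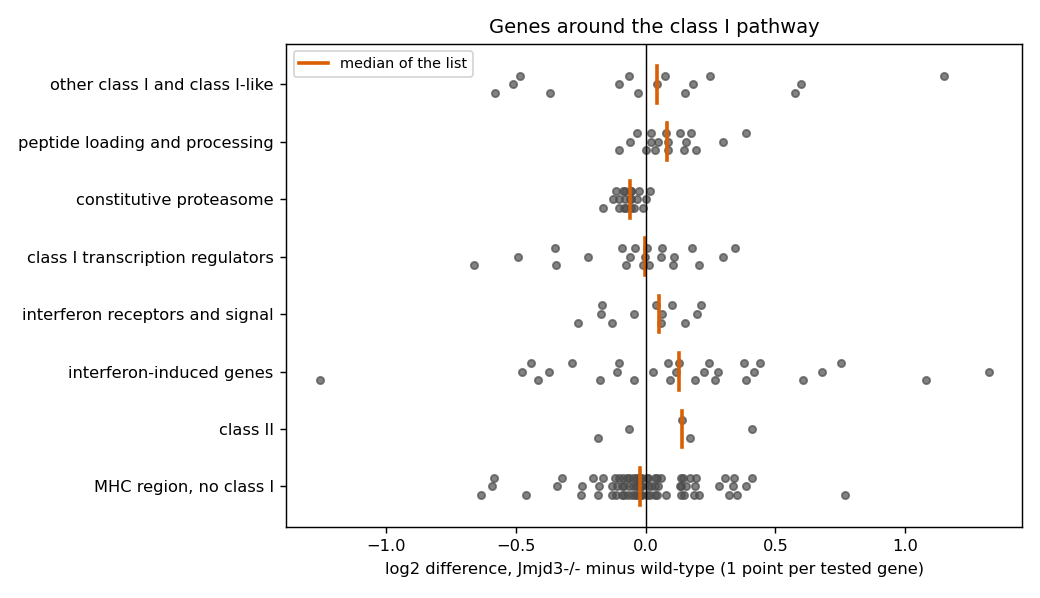
Log2 difference, Jmjd3-/- minus wild-type (x axis), of each tested gene in 8 lists around the class I pathway, with the median of each list in orange. The medians lie between −0.06 (constitutive proteasome) and 0.14 (class II), and H2-K2 is the rightmost point of the other class I genes at 1.15.

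Class II genes, which serve presentation to CD4 T cells, were represented by 5 tested genes. Of these 0 passed in limma and 1 had an unadjusted p under 0.05 (20%, against 11.2% of all genes tested). That was H2-Oa, with −2.99 and −2.79 in the Jmjd3-/- samples, against −3.19 and −3.42 in the wild-type samples (difference 0.41, SE 0.13, limma adjusted p = 0.425). H2-Ab1 and the invariant chain gene Cd74 had 0.17 (SE 0.07) and 0.14 (SE 0.09), and H2-DMb1 −0.19 (SE 0.15). None of the 8 receptor and inhibitor genes of class I recognition that were on the array could be tested. Cd8a was well above background on Jmjd3-/- replicate 9 only, with processed intensities of 2.74 and 56.7 units in the Jmjd3-/- samples, against 4.29 and 4.70 units in the wild-type samples.

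Markers of other cells were set beside the class I values, and in whole tissue fewer cells of a type cannot be told apart from less RNA per cell. Of 12 macrophage and leukocyte markers 6 were tested, and Ptprc, Itgam, Spi1 and Aif1 were not well above background on any array. The 6 tested genes summed to 0.767 and 0.763 in the Jmjd3-/- samples, against 0.894 and 1.17 in the wild-type samples. Sums are in units of each array's 75th percentile. Of the 6, 4 were lower without overlap and 0 higher, against 23.8% and 23% of all genes. Tyrobp, 1 of the 4, was well above background on neither Jmjd3-/- array, so it was tested only through the wild-type arrays. Laptm5, also 1 of the 4, was well above background on only 1 Jmjd3-/- array. It therefore passed the filter only through the wild-type arrays as well. For lymphoid markers, 5 tested of 10, the sums were 1.90 and 2.07 in the Jmjd3-/- samples, against 2.06 and 2.17 in the wild-type samples. These sums followed mainly Lck, the brightest of the 5. Without overlap 1 gene was higher, Nkg7 at 0.52, and 1 was lower, Cd79b at −0.38, beside the same shares of all genes. Egfl7 and Emcn were among the 12 tested endothelial markers, whose sums were 26.5 and 25.9 in Jmjd3-/- against 28.4 and 28.3 in wild-type. Without overlap 5 of the 12 were lower and 0 higher, beside the same shares of all genes.

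Tissues around the embryo were checked in the same way. Decidua and uterus markers, 8 tested of 12, summed to 2.68 and 4.28 in the Jmjd3-/- samples, against 7.10 and 3.86 in the wild-type samples, with Dcn highest in wild-type replicate 3. By gene, 6 of the 8 differences were negative and 2 positive. Without overlap 4 genes were lower and 0 higher, against 23.8% and 23% of all genes. Prl8a2, a marker of this list that was not tested, was well above background on Jmjd3-/- replicate 1 only. Its processed intensities were 73.2 and 3.28 units in the Jmjd3-/- samples, against 2.98 and 2.95 units in the wild-type samples. Trophoblast markers, 5 tested of 12, summed to 4.02 and 5.39 in Jmjd3-/- against 5.51 and 4.00 in wild-type. These sums followed mainly Hand1, the brightest of the 5, whose own difference was 0.02 with overlap. Of the 5, 1 was higher without overlap, Rhox6 at 1.42, and 1 was lower, Prl3b1 at −0.38, against 23% and 23.8% of all genes. Visceral endoderm markers, 11 tested of 12 and led by Afp and Rbp4, summed to 12.0 and 13.9 in Jmjd3-/- against 26.1 and 21.4 in wild-type. The list was mixed: of the 11 genes 5, among them Spink1 at 0.85 and Cubn at 0.56, were higher without overlap and 4 were lower, against 23% and 23.8% of all genes, and the median difference was −0.08. Ttr, 1 of the 4, was well above background on neither Jmjd3-/- array, so it too was tested only through the wild-type arrays. Slc39a5, 1 of the 5 higher genes, was well above background on only 1 wild-type array. It was therefore tested only through the Jmjd3-/- arrays. Posterior embryo markers summed to 136 and 103 in Jmjd3-/- against 74.6 and 79.8 in wild-type. Differences were positive for 12 of 16, against 6365 of all 13583 genes, with a median of 0.75. Without overlap 11 of the 16 were higher and 2 lower, against 23% and 23.8% of all genes. In limma 0 passed, and 68.8% had an unadjusted p under 0.05, against 11.2% of all genes tested. The part of these tissues in the H2-Bl difference was not tested. Xist was the only sex-linked gene tested, at 7.57 and 3.54 in Jmjd3-/- against 4.29 and 4.55 in wild-type on the same scale, and the 4 Y-linked genes of the list were not well above background on any array.

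By distance between log2 values centred per gene, the tested genes nearest to H2-Bl over the 4 arrays were Fbxw18, Cuedc1 and Gm8267, on chromosomes 9, 11 and 14. Cuedc1 was at a Euclidean distance of 0.922, with 0.63 and −0.04 in the Jmjd3-/- samples, against −3.11 and −3.09 in the wild-type samples. Fbxw18 and Gm8267 were not well above background on either wild-type array, so their likeness to H2-Bl was not measured and no distance is given. Nearest to B2m were Bco1, Nr2c2ap and Rgs10, at 0.0509, 0.0510 and 0.0510.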

How the data were processed

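Agilent 1-colour oligonucleotide arrays measured total RNA of 4 samples, 2 Jmjd3-/- and 2 wild-type. The deposited scanner files hold spot intensity in arbitrary units, written by Agilent Feature Extraction 10.7.3.1 per the submitters' processing notes. Per the file headers, that software removed background and spatial trends from the processed intensity and did not normalise between arrays. The authors' deposited table holds log2 values. No label states its scale, and its values matched log2 processed signal less the array's 75th percentile and less the wild-type mean (r from 0.993 to 0.996 across probes, 99.8% within 0.01), with column medians of −0.02 and 0.05 (Jmjd3-/-) and 0.02 and −0.02 (wild-type). It was used as an alternative.

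Of 45018 spots, 1639 controls and the 84 to 97 spots per array flagged as outliers by the software were left out, and repeated spots were averaged on the log2 scale, giving 41174 probes. Each array's 75th percentile (603 and 577 units for Jmjd3-/-, 598 and 626 for wild-type) was subtracted. Median local background was 138 to 141 units and 0 spots were saturated. RefSeq (GRCm38.p6) named 26690 probes by accession and 28 by synonym; its coordinates were used for promoter windows only, since the file headers name another build. Within each genotype 0 genes had exactly equal values on both arrays.

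The comparison used limma 3.58.1 and R 4.3.3 (lmFit and eBayes, no covariate, Benjamini-Hochberg, adjusted p under 0.05) over 13583 genes, each represented by its probe of highest mean signal if at least 1 genotype had it well above background on both of its arrays. SEs of single probes of the 8 genes came from the same fit over 25053 probes. The fit was tested on simulated data. The members, lists and tests were chosen with earlier results of these data known. The text names every probe of the 8 genes and up to 4 genes of each pathway list by p. It also names the 2 brightest of some marker lists and the 3 nearest profiles. Genes added after their values were seen were Spink1, Cubn, Xist, Cd8a, Ifit1, Psmb8, Psmb9, Psmb10, Nlrc5, Prl8a2, Laptm5 and Slc39a5. Added in the same way were Hand1, Rhox6, Prl3b1, Lck, Cd79b and Nkg7. So were the interferon genes, the leukocyte markers below background and the other class I genes past the first 4. Alternatives covered background correction (normexp on median signals with an offset of 50, since the files hold no mean signal), scaling, filters, outlier spots, a gene's probes, the variance trend and leaving out each array. Protein identity of the class I chains was planned and is not reported here.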

Additional observations from a re-analysis of the deposited data

How the results depend on the processing

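No paired analysis was possible because the genotypes share no replicate number. Background correction moved the 8 genes most. With normexp the 3 H2-Bl probes gave log2 differences of 3.30, 1.503 and 2.66, and Tapbp A_51_P304500 gave 0.16. Over every setting the H2-Bl probes ranged from 3.30 to 4.34, from 1.503 to 2.28 and from 2.66 to 4.73. Differences that changed sign among the settings were those of both B2m probes (−0.47 to 0.21 and −0.48 to 0.04), of H2-K1 A_52_P50496 (−0.15 to 0.33) and A_52_P474242 (−0.03 to 0.03) and of Tapbp A_52_P684830 (−0.01 to 0.09). With 2 arrays per genotype, leaving one out cannot move a difference by more than 1 SD between replicates, whatever the gene. Among other named genes Cd74 was reversed with normexp (−0.080) and H2-DMb1 with all probes of a gene averaged (0.056), Rsad2 was −0.24 with normexp, and Ganab was 1.02 and H2-K2 0.55 with all probes averaged. The cause was not tested.

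The number of genes that passed over the whole table, 3 higher and 2 lower, was not stable. It was 1 higher and 1 lower with normexp, 0 and 0 with quantile normalisation, 0 and 0 with no filter on dim probes and 0 and 0 with a filter on all 4 arrays. Lower calls were 4 with median scaling and 4 with all probes of a gene averaged, and higher calls were 1 with a variance trend. With an array left out, where the lone sample of a genotype is assumed to vary like the others, higher calls ran from 0 (without either wild-type array) to 91 (without Jmjd3-/- replicate 9) and lower calls from 0 to 92; without Jmjd3-/- replicate 1 they were 44 and 5. Pathway lists had 0 to 1 calls, the 1 being Cd8a without Jmjd3-/- replicate 1. Member probes above wild-type on every Jmjd3-/- array were 7 to 8 with an array left out, and those below 0 to 4; with normexp and with no filter on dim probes 1 was below. With an array left out, 1 array is set against 2, a looser condition than 2 against 2. No share over all measured probes is given for these settings, so nothing is read from the change in these counts. No setting moved the median of all genes beyond −0.03 to 0.02. The signals of Tap1, Tap2 and Nlrc5 over background limit what can be said of them.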
